A study of Mus musculus with 9 samples.

Results

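The 152 genes described here had at least 2-fold less signal in the sorted bone marrow cells of mice in the medium phase of leukemia than in those of wild-type mice. They were chosen by 3 conditions on log2 array signals. The mean of the wild-type arrays was at least 8, the mean of the medium-phase arrays lay at least 1 below it, and the highest medium-phase array lay below the lowest wild-type array. Of 18194 genes with a probe set of a single gene symbol, 7226 met the first condition, and 152 of these (2.1%) met all 3. Each gene was read from its brightest such probe set over the 9 arrays. Since these values chose the genes, their difference between the medium phase and wild type is given as a description, with no test.

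The cells came from bone marrow of FVB/NJ mice and had been sorted as lacking CD45.1, a leukocyte surface marker, and Ter119, a surface marker of red cell precursors. Wild-type mice (WT), leukemic recipients in the early phase (E) and leukemic recipients in the medium phase (M) gave 3 arrays each, labelled biological replicates. Leukemic cells made up 1 to 5% of the marrow in E and 5 to 50% in M. The leukemia model, its alleles, the age of the mice and any pooling of animals are not given in the sources used here, so p-values measure the spread between arrays. The latent and late phases of the design are not analysed here. The series asked what changes in marrow stromal cells over the course of leukemia.

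Every array had the same mean linear signal of 500 after the lowest and highest 2% of probe sets were set aside, as the authors' MAS5 processing scales it. The median log2 signal over all probe sets was 5.60 to 5.68 in WT, against 5.43 to 5.60 in E and 6.24 to 6.28 in M. The 12 poly-A spike-in probe sets, RNA added before labelling, read 1.01 higher (log2) in M than in WT. A fall on this scale is therefore relative to the other RNA of the same array, and the median difference between M and WT of the 9097 tested genes was -0.19 as deposited, -0.82 after centring each array on its median and -1.2 after scaling on the spike-ins. In the bulk arrays, fewer cells of a type and less RNA per cell cannot be told apart.

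Markers of the labelled cell type were measured in every group. The summed linear signal of 10 genes that define marrow stromal cells was 3789 to 4288 in WT, against 4885 to 5313 in E and 55506 to 70859 in M, and none of them was at 0 on any array. The M arrays thus carried more stromal signal than WT. By limma (a linear model fitted to all tested genes, Benjamini-Hochberg adjusted p under 0.05), 9 of 9 tested stromal genes were called higher in M. That held under the deposited scaling, where 25.3% of all tested genes were called higher, and under 3 others, where 10.6% to 22.5% were. Leukocyte signal was present as well. The summed signal of 20 pan-leukocyte genes was 18448 to 19089 in WT, 17031 to 17873 in E and 20736 to 29355 in M. In M, 12 of the 18 tested were called higher and 4 lower, and after scaling on the spike-ins 4 and 7.

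Dividing cells duplicate their DNA with a helicase, polymerases and a clamp loader, and then separate the copies on a spindle that checkpoint kinases watch over. Marrow is rich in such cells, chiefly the precursors of red and white blood cells. Mitochondria keep a ribosome of their own, built from proteins that the nucleus encodes, and cytosolic ribosomes are assembled in the nucleolus. By these known roles, 82 of the 152 genes were sorted by hand, after their values had been seen, into 9 groups, and the other 70 were left without one.

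Promoter sequence from RefSeq (assembly GRCm38.p6, 250 bases before to 50 after the start) was matched for 129 of the 152 genes, in 159 windows. The 100 bases before the start are shown for 6 genes picked after the matches were seen: Pdia2 and 6030468B19Rik, among the deepest falls, Icam4 and Pklr, of red blood cells, and Espl1 and Plk1, of mitosis. Capitals mark matches, on either strand, to any of 8 motifs. CCAAT, the element that the factor NF-Y binds, and TTTGAA, the cell cycle homology region, are known from cell cycle promoters. TTCCCGC is a form of the E2F site and CCGGAAG a form of the site that ETS factors read. AGATAA is a form of the site of the GATA factors, which act in blood cells. The remaining motifs were GGGCGG, known as the Sp1 site, then TATAAA, which places the start of transcription, and lastly CACGTG, which basic helix-loop-helix factors bind. Pklr has a second window in the table, which starts further along and holds TATAAA and CCAAT but not AGATAA. The motifs were searched separately and may share bases, as those of Sp1 and E2F can.
Pdia2, chr17:26199088-26199187, minus strand: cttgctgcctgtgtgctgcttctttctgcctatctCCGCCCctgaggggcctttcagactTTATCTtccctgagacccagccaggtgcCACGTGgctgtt
6030468B19Rik, chr11:117797560-117797659, plus strand: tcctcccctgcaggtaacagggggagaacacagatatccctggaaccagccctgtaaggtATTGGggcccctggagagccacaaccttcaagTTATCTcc
Icam4, chr9:21029332-21029431, plus strand: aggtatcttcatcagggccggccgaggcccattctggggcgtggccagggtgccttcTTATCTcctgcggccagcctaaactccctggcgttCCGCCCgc
Pklr, chr3:89136042-89136141, plus strand: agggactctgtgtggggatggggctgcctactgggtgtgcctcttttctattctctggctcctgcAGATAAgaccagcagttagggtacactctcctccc
Espl1, chr15:102296193-102296292, plus strand: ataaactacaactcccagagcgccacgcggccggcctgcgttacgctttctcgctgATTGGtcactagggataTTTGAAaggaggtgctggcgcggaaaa
Plk1, chr7:122159335-122159434, plus strand: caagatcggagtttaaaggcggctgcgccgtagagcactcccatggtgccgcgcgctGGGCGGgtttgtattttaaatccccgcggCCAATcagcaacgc

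AGATAA, on either strand, was present in 20 of the 159 windows (12.6%), against 5.89% of 7423 windows of the other genes with a WT mean of at least 8 and 11.2% of all 32851 windows in the table. CCAAT was present in 42.8%, 37.9% and 37.4% of the same 3 sets, and TTTGAA in 15.1%, 12% and 17.9%. GGGCGG was present in 54.7%, 65.7% and 35.7%, CCGGAAG in 19.5%, 21.4% and 8.86%, and TTCCCGC in 10.1%, 9.35% and 4.6%. TATAAA was present in 8.18%, 6.49% and 13.6%, and CACGTG in 10.1%, 11.2% and 7.15%. GC content was 58.4%, 61.2% and 53.8% in the same order. These shares are descriptions of the letters in the windows.

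The falls were of narrow size. The difference between M and WT ranged from -1.54 to -1.0 (log2), with a median of -1.08, which is 2.12-fold. For 87 of the 152 genes it was smaller in size than 1.1, and for 29 it was at least 1.2. Of the 7226 genes, 153 fell by at least 1, the 152 and 1 with overlapping arrays, whereas 436 (6.03%) rose by at least 1, by up to 6.46. Across the 7226 genes the median difference was -0.29, and all M arrays lay below all WT arrays in 3959 of them (54.8%). In WT the means ranged from 8.21 to 13.25 with a median of 10.50, and 97 of the 152 were at 10 or above.

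The threshold cut through a continuous range. Just inside it lay Trip13, an ATPase of the spindle checkpoint and of meiosis, Aldh1a7, an aldehyde dehydrogenase, and Cenpv, a centromere protein, with differences of -1.0027, -1.0005 and -1.0004. Just outside lay 4933431E20Rik, Gfer, a mitochondrial sulfhydryl oxidase, and Surf2, with -0.99886, -0.9982 and -0.99766. One gene, Dctn6, a dynactin subunit, fell by 1.05 on average but had overlapping arrays, since M3 read 12.46 and its WT arrays 12.44, 12.36 and 12.20. M1 and M2 read 10.58 and 10.79 for it.

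**Figure D1:**
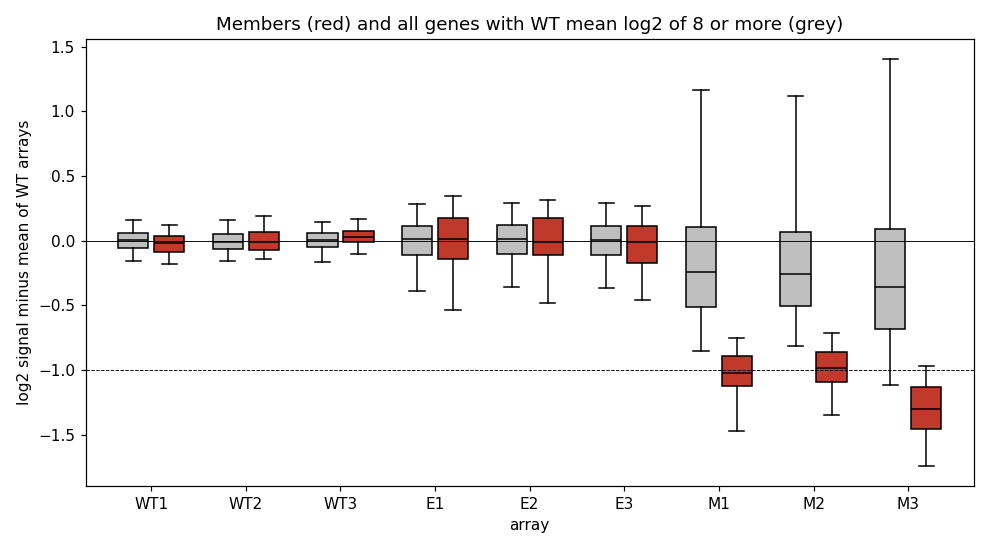
Log2 signal on each array minus the gene's mean over the 3 WT arrays, for the 152 genes (red) and all 7226 genes with a WT mean of at least 8 (grey). Boxes span the quartiles with the median as a line, and whiskers the 5th to 95th percentile; the red medians are at -1.02, -0.98 and -1.30 on M1, M2 and M3 and within 0.03 of 0 on the WT and E arrays.

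The deepest fall was that of Pdia2, a protein disulfide isomerase. Its log2 signal was 10.71, 11.06 and 11.00 in WT, 10.34, 10.44 and 10.47 in E, and 9.61, 9.64 and 8.90 in M. The means were 10.92 ± 0.19, 10.41 ± 0.07 and 9.38 ± 0.42 (mean ± SD, n = 3), so that M was 2.91-fold lower than WT and the E arrays lay between the groups without overlap. The difference between E and WT (-0.51 ± 0.17 SE) did not pass the test (limma adjusted p = 0.207).

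Hpn, which encodes the membrane serine protease hepsin, was not lower in E than in WT. It read 9.80 ± 0.08 in WT, against 10.02 ± 0.04 in E and 8.29 ± 0.07 in M (mean ± SD, n = 3). Its M arrays, at 8.27, 8.23 and 8.37, were among the closest to each other, and all E arrays lay above all WT arrays. Slc6a13, a transporter of the transmitter GABA, was at 9.46, 9.44 and 9.51 in WT, at 9.43, 9.54 and 9.43 in E, and at 8.01, 7.96 and 8.07 in M, so that WT and E overlapped and M stood apart.

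Spata24 was at 11.24, 11.25 and 11.23 in WT, at 11.34, 11.33 and 11.33 in E, and at 9.66, 9.81 and 9.99 in M. Here M1 was the lowest M array and E lay above WT. Sec14l2, a lipid-binding carrier, went from 10.22 ± 0.12 in WT over 9.92 ± 0.02 in E to 8.91 ± 0.26 in M (mean ± SD, n = 3). Tac2, the precursor of a tachykinin neuropeptide, rested on 1 array: M1 and M2 were at 9.53 and 9.51 and M3 at 7.77, below WT arrays of 10.18, 10.31 and 10.43.

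**Figure D2:**
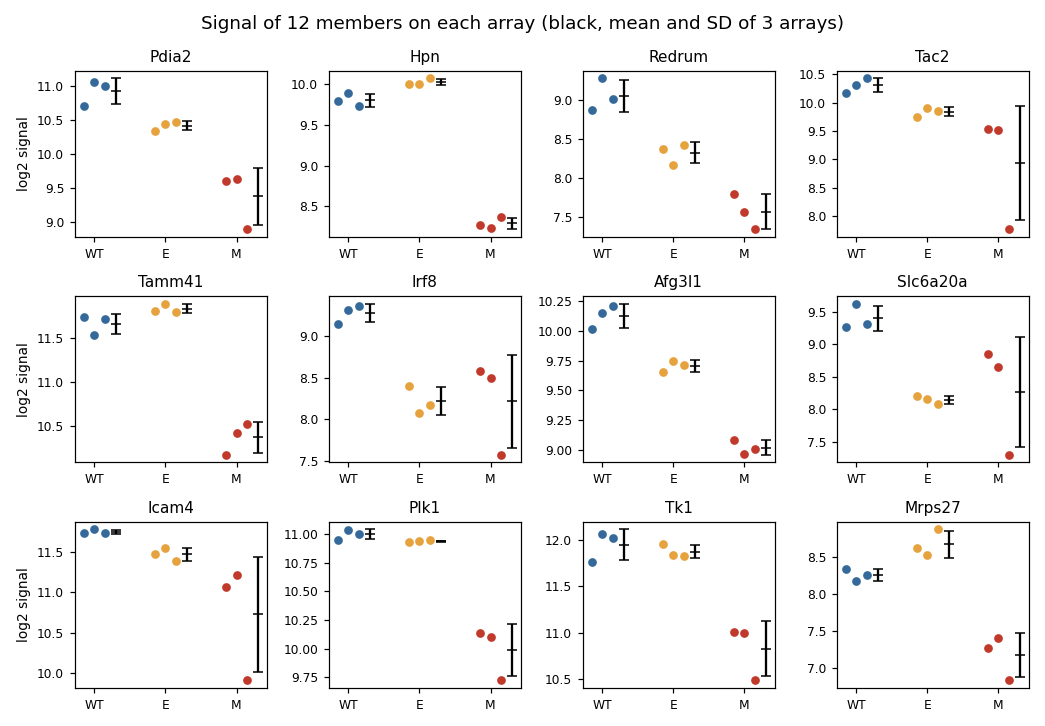
Log2 signal of 12 genes on each array, in WT (blue), E (orange) and M (red), with the mean and SD of 3 arrays in black; each panel has its own axis, which does not start at 0. Pdia2 and Redrum lie between WT and M in E, Hpn and Tamm41 are lower in M alone, and Tac2, Slc6a20a and Icam4 are spread widely over the M arrays.

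Genes of mitosis made up 14 of the 152. Of a list of 57 mitosis genes with a WT mean of at least 8, 5 (8.77%) were among the 152, against 2.1% of all such genes. They were Bub1b, a checkpoint kinase, Espl1, the protease separase, Kif20a, a kinesin of cell cleavage, Tacc3, a spindle protein, and Plk1, a mitotic kinase. Bub1b read 11.48, 11.34 and 11.52 in WT, 11.44, 11.54 and 11.57 in E, and 10.33, 10.55 and 9.82 in M. Its WT and E arrays overlapped, and M3 was the lowest.

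Plk1 was at 11.00 ± 0.04 in WT, against 10.94 ± 0.00 in E and 9.99 ± 0.23 in M (mean ± SD, n = 3), and M1, M2 and M3 were at 10.13, 10.10 and 9.72. Tacc3 was at 11.45 ± 0.12, 11.41 ± 0.14 and 10.38 ± 0.31, but further Tacc3 probe sets, with WT means of 8.44 and 9.36, fell by 0.36 and 0.25 in M. Kif20a was at 10.89 ± 0.14, 10.85 ± 0.03 and 9.81 ± 0.38. For these 3 genes too, M3 was the lowest array.

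The other 9 mitosis genes were the centromere genes Cenph, Cenpv and Oip5, the spindle genes Haus8, Dlgap5 and Psrc1, Bora, an activator of mitotic kinases, Rcc1, which charges the small GTPase Ran, and Anapc15, a subunit of the ubiquitin ligase that starts anaphase. Haus8 fell furthest in the group, by 1.28. For 4 of 14 genes all E arrays lay below all WT arrays and for 3 above, against 15.1% and 16.4% of the 7226. The group's median in E was -0.05, and after centring each array on its median it was 0.09. Centring alone moved the median E difference of all tested genes from 0.007 to 0.143. M3 was the lowest M array for 12 of the 14, against 52% of the 7226.

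DNA synthesis was represented by Gins1, of the replicative helicase, Pola2, of the polymerase that primes DNA, Tk1, thymidine kinase, Chtf18, of a clamp loader, and Rnaseh2a, which removes RNA from DNA. Gins1 read 12.56 ± 0.03 in WT, against 12.43 ± 0.13 in E and 11.51 ± 0.38 in M (mean ± SD, n = 3). Tk1 read 11.76, 12.06 and 12.03 in WT, 11.95, 11.84 and 11.82 in E, and 11.01, 11.00 and 10.49 in M. Pola2 read 10.83 ± 0.08, 10.91 ± 0.06 and 9.67 ± 0.30. Chtf18 had the deepest fall of the group, from 8.63, 8.74 and 8.67 in WT to 7.19, 7.70 and 7.25 in M. For none of the 5 genes were the E arrays all below or all above the WT arrays, against 15.1% and 16.4% of the 7226.

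Most other genes of both lists also read lower in M. Of 47 DNA replication genes with a WT mean of at least 8, 3 (6.38%) were among the 152, all 47 had M means below WT, and their median difference was -0.74. The 57 mitosis genes had a median of -0.62. Of the tested genes of each list, 44 of 48 replication genes and 47 of 58 mitosis genes were called lower in M and 0 and 1 higher, against 43.5% lower and 25.3% higher over all tested genes. After centring on the median these backgrounds became 73.0% and 13.9%, and 48 of 48 and 56 of 58 genes of the lists were called lower. Since the M contrast chose the 152, these counts describe the surroundings of the chosen genes.

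DNA repair and recombination held 12 genes. Among them were Fancd2 and Fanci, the partners that mark crosslinked DNA, Rad18, a ubiquitin ligase of damaged forks, Mre11a and Xrcc3, of break repair, and Nudt1, which clears oxidized nucleotides. The others were Eme1, Helq, Parpbp, Cenpx, Mnd1 and Trip13. Fancd2 read 9.72, 9.67 and 9.64 in WT, 9.51, 9.56 and 9.55 in E and 8.72, 8.66 and 8.37 in M, with no overlap between any 2 groups. It was not called in E. On a second Fancd2 probe set, WT (8.44, 8.66 and 8.62) and E (8.15, 8.40 and 9.03) overlapped, and M fell by 0.62. Both Fanconi genes were among 7 of that name with a WT mean of at least 8, and the median of those 7 was -0.51. In E the 12 had a median of -0.02, which was 0.12 after centring on the median, against 0.143 over all tested genes.

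Genes grouped with the mitochondrial ribosome numbered 7, of which 6 carry a symbol of its proteins. Whether each of these 6 is part of that ribosome was not checked. Of 76 genes named as mitochondrial ribosomal proteins with a WT mean of at least 8, 6 (7.89%) were among the 152: Mrps18b, Mrps27, Mrps34, Mrps36, Mrpl38 and Mrpl49. Gadd45gip1, a protein of that ribosome by its known role, was a 7th. The 76 had a median difference of -0.72, and 74 of them were called lower in M and 1 higher. Genes named as cytosolic ribosomal proteins gave 0 of 46, with a median of -0.11, and the respiratory chain list gave 0 of 29, with a median of -0.41. In sets of that size, 0 is near the 2.1% over all such genes. Calls lower in M were about as frequent for the respiratory chain (27 of 29) and complex I (41 of 42). So were those for the proteasome (45 of 48) and ribosome biogenesis (25 of 26). They were rarer among cytosolic ribosomal proteins (14 of 49), against 43.5% over all tested genes. After centring on the median, 76 of 76 mitochondrial and 45 of 49 cytosolic ribosomal proteins were called lower, against 73.0% of all tested genes.

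Mrps18b read 11.35, 11.30 and 11.45 in WT, 11.73, 11.68 and 11.67 in E, and 10.41, 10.38 and 10.20 in M. The groups did not overlap, and the E difference of 0.33 ± 0.08 SE was just outside the threshold (limma adjusted p = 0.0554). Mrps27 also read higher in E, at 8.26 ± 0.08 in WT, against 8.67 ± 0.18 in E and 7.17 ± 0.30 in M (mean ± SD, n = 3), and its E difference of 0.42 had an adjusted p of 0.293 in limma. For 4 of the 7 genes all E arrays lay above all WT arrays, against 16.4% of the 7226. The median of the 7 genes in E was 0.20. Their median stayed above 0 under each of 3 other scalings, at 0.17, 0.34 and 0.21. Over all tested genes the same scalings gave 0.014, 0.143 and 0.014.

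Another 12 genes act in mitochondria. Tamm41, an enzyme on the way to cardiolipin, read 11.74, 11.54 and 11.72 in WT, 11.81, 11.89 and 11.80 in E, and 10.17, 10.42 and 10.52 in M. Afg3l1, a subunit of the inner membrane protease, was one of the few genes of the 152 called in E. It read 10.01, 10.15 and 10.21 in WT, 9.65, 9.75 and 9.71 in E, and 9.08, 8.96 and 9.01 in M, stepping down without overlap. Atp5md, a small protein of the ATP synthase, read highest in E, at 13.12 ± 0.29 in WT, against 13.57 ± 0.04 in E and 12.04 ± 0.38 in M (mean ± SD, n = 3), though the E difference of 0.45 did not pass (limma adjusted p = 0.261). The rest were Atpaf2, Ndufaf6, Bola1, Ccdc51, Dnajc11, Mpv17l2, Mtfp1, Nme4 and Txnrd2.

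Nucleolar and ribosome assembly genes numbered 10. Rrp1b, a nucleolar protein, read 11.33 ± 0.09 in WT, against 11.41 ± 0.14 in E and 10.05 ± 0.08 in M (mean ± SD, n = 3), with M arrays at 9.97, 10.05 and 10.12. Bysl, of small subunit assembly, fell by 1.07, and Polr1b, of RNA polymerase I, fell by 1.02. Polr1b was the single member of a list of 26 ribosome biogenesis genes, whose median difference was -0.58. Ccdc86, Ddx55, Exosc5, Nsun5, Ppan, Riox1 and Tbl3 were the others. In E the median of the 10 was 0.19, and it was 0.19 to 0.32 under the other scalings, highest with centring. Of 4 tRNA modification genes, Ftsj1, Wdr4, Elp4 and Dus1l, the deepest fall was that of Ftsj1, by 1.19.

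Membrane transporters were 7 of the 152, Slc6a13, Slc6a20a, Slc26a1, Slc30a10, Slc46a3, Abcg4 and Atp7b. Slc6a20a, a transporter of imino acids, had the lowest E difference of all 152 genes. It read 9.27, 9.63 and 9.31 in WT, 8.21, 8.16 and 8.09 in E, and 8.86, 8.65 and 7.30 in M. The E arrays lay below M1 and M2 and above M3, and the difference of -1.25 ± 0.32 SE did not pass (limma adjusted p = 0.0783). Slc30a10, a manganese exporter, read 8.55 ± 0.29 in WT, against 7.67 ± 0.12 in E and 7.40 ± 0.40 in M (mean ± SD, n = 3), with E and M overlapping and an adjusted p of 0.0658 for E with WT in limma.

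Regulators and effectors of blood cells numbered 11. By group means, Irf8, a transcription factor of monocytes and dendritic cells, fell as far in E as in M. Its WT arrays were at 9.15, 9.32 and 9.37. Its E arrays were at 8.40, 8.08 and 8.17, and its M arrays at 8.58, 8.50 and 7.57. M1 and M2 thus lay above all E arrays, and the equal means rested on M3. On a second Irf8 probe set, with a WT mean of 8.03, the difference from WT was -1.17 in E and -0.61 in M. There all E arrays lay below all M arrays. Redrum, a long noncoding RNA of developing red cells, went down in steps, at 8.87, 9.27 and 9.01 in WT, 8.37, 8.17 and 8.42 in E, and 7.79, 7.56 and 7.34 in M. Ccnd3, a D-type cyclin, read 12.07 ± 0.14, 11.55 ± 0.09 and 11.02 ± 0.47 (mean ± SD, n = 3), and its E difference did not pass (limma adjusted p = 0.218).

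Icam4, an adhesion molecule of red cells, read 11.73, 11.78 and 11.74 in WT and 11.48, 11.55 and 11.39 in E. In M it read 11.06 and 11.22 on M1 and M2 and 9.91 on M3, so that its mean fell by 1.02 and M3 stood apart. Pklr, the pyruvate kinase of red cells and liver, read 10.54 ± 0.11 in WT, against 10.59 ± 0.05 in E and 9.47 ± 0.26 in M (mean ± SD, n = 3). Lyl1 and Tcf3, transcription factors of blood progenitors, fell by 1.04 and 1.01. The lists of such cells did not fall with them. Of 16 tested stem and progenitor genes, 10 were called higher in M and 4 lower, and of 12 B lineage genes 10 and 1. Over all tested genes 25.3% were called higher and 43.5% lower. After scaling on the spike-ins the counts were 2 and 6 of 16, and 6 and 2 of 12. Fyb, Lgals9, Tnfrsf14 and Unc13d, of immune cells, completed the group. None of the 28 genes of the erythroid list, whose median difference was -0.31, was among the 152, nor any of 14 pan-leukocyte genes, and at the 2.1% over all such genes fewer than 1 would be in either list.

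The 70 genes without a role had E differences on both sides of 0. They included the proteasome genes Psmb7 and Psmd9, the glutathione transferases Gstp3 and Gsta4, Psen2, of the gamma-secretase, and Sphk1, sphingosine kinase. Probe sets of close relatives, such as Aldh1a7 and Gstp3, may read more than 1 gene, which was not tested here. Of 33 gene lists drawn up for cell types and pathways, 29 held none of the 152, and 10 of the 152 were in any list. Most lists are so short that a share of 2.1% gives fewer than 1 gene.

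**Figure D3:**
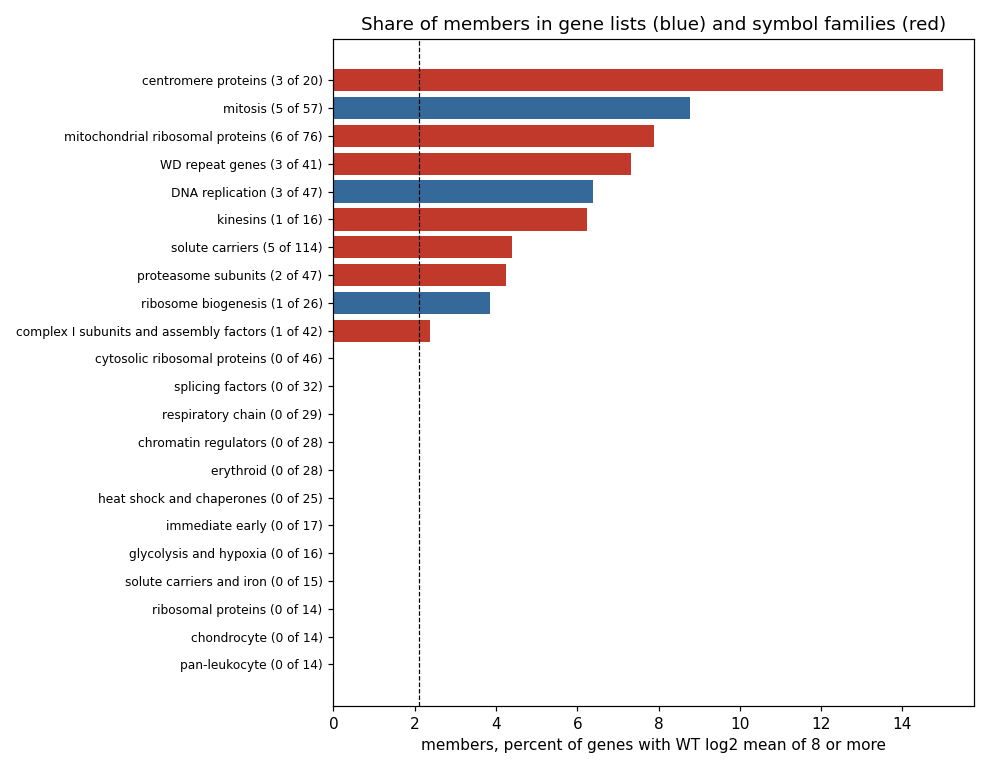
Genes of the 152 as a percent of the genes with a WT mean of at least 8, in the 14 gene lists (blue) and 8 families defined by symbol (red) that hold at least 14 such genes. The dashed line is the 2.1% over all such genes. The 10 sets that hold any of the 152 lie to its right, from centromere proteins (3 of 20) to complex I (1 of 42), and the others are at 0. In a set as small as complex I, 1 gene is enough to pass the line, and the families were chosen after values were seen.

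In E, when leukemic cells were still few, the 152 genes lay on both sides of their WT levels. The median difference between E and WT was -0.005, with quartiles of -0.13 and 0.145, while over all 7226 genes it was 0.011 with quartiles of -0.094 and 0.105. Of the 152, 77 lay below WT and 75 above, and 120 were within 0.25 of it. All E arrays lay below all WT arrays for 32 genes (21.1%, against 15.1% of the 7226), and above for 33 (21.7%, against 16.4%). All E arrays lay above all M arrays for 149 of the 152, against 54.8% of the 7226, and the exceptions were Irf8, Slc6a20a and Slc30a10. The M arrays in that last count, and the WT arrays in the others, were used in the choice of the genes.

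The test of E with WT called 3 of the 152 lower (1.65% of all 9097 tested genes were) and 0 higher (0.462% were). At an unadjusted p under 0.05, 15 were lower and 14 higher in limma, or 9.87% and 9.21%, against 7.69% and 6.36% of all tested genes. The called genes were Afg3l1 (-0.42 ± 0.09 SE, limma adjusted p = 0.0340), Redrum (-0.73 ± 0.16 SE, adjusted p = 0.0410) and Irf8 (-1.07 ± 0.23 SE, adjusted p = 0.0412), and each was lower on 3 of 3 E arrays than on any WT array. Afg3l1 was no longer called with the mean of its probe sets (-0.10, limma adjusted p = 0.735), since its second probe set read higher in E (7.78) than in WT (7.55). Leaving out any single WT or E array left 0 of the 152 called. Without M3, whose spread enters the model, 19 were called lower and 7 higher, against 6.11% and 3.12% of tested genes, and with array weights 15 and 9, against 5.89% and 3.43%. Centring on the median gave 1 lower and 2 higher, where all tested genes gave 103 and 131 in place of 150 and 42.

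**Figure D4:**
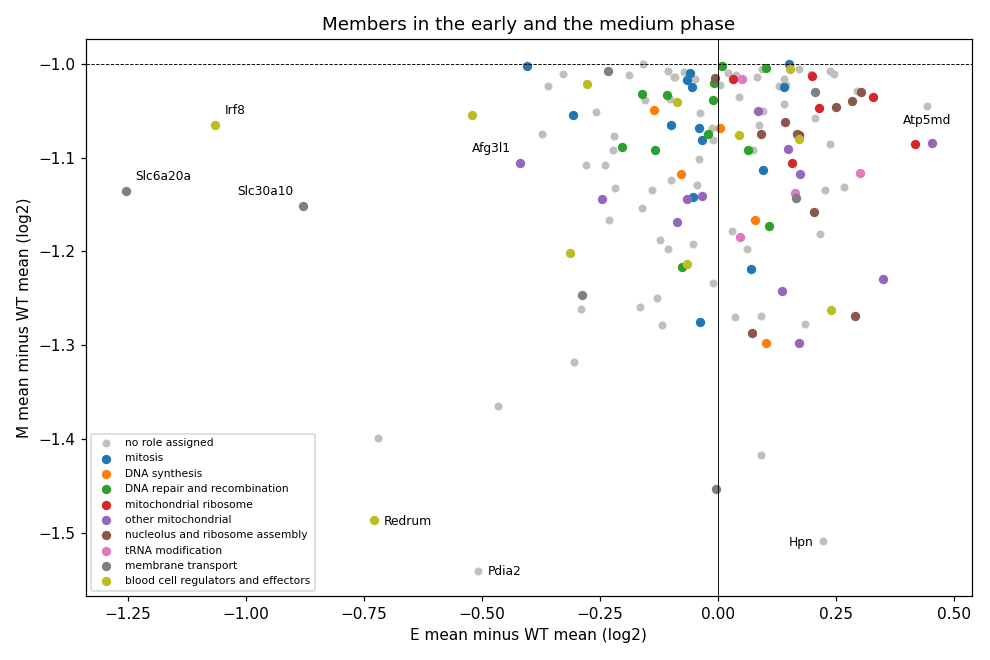
Difference of the E mean from the WT mean (horizontal, log2) and of the M mean from the WT mean (vertical, log2) for each of the 152 genes, coloured by role; the dashed line is the threshold of -1 that chose them, and both differences share the WT arrays. Most genes lie within 0.25 of 0 in E, and Slc6a20a (-1.25) and Irf8 (-1.07) lie farthest to the left.

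The M arrays did not carry the fall equally. The median difference of the 152 genes from the WT mean was -1.02 on M1, -0.98 on M2 and -1.30 on M3, and over the 7226 genes it was -0.24, -0.26 and -0.36. A difference of -1 or lower was reached by 85 genes on M1, 67 on M2 and 143 on M3, and by 39 on all 3. M3 was the lowest M array for 107 of the 152 (70.4%, against 52% of the 7226), M1 for 28 (18.4%, against 22.3%) and M2 for 17 (11.2%, against 25.7%). With the mean of M1 and M2 alone, 72 of the 152 still lay at or below -1, as did 1.22% of the 7226. The rule used the mean of these same M arrays, which a low value on any 1 of them lowers. These counts therefore describe the chosen genes and are not a test.

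The widest spread over the M arrays was that of Tac2, with a range of 1.76 (log2), followed by Slc6a20a, Icam4, Snrnp35, of the minor spliceosome, and Zbtb45, a zinc finger gene. M3 was the low array in each of them. Snrnp35 read 8.22, 8.45 and 7.36 on M1, M2 and M3, and Zbtb45 read 8.0, 7.97 and 6.97. The median range over the M arrays was 0.41 for the 152 genes and 0.28 for the 7226. The median SD of the 152 over 3 arrays was 0.22 for M, against 0.09 for WT and 0.08 for E. Since the M and WT arrays chose the 152, these spreads too are descriptions.

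Summed levels of marker lists are given for the same arrays. The summed linear signal of 29 erythroid genes on the array was 235280 to 260805 in WT, against 226086 to 237536 in E, and 264839, 251176 and 149337 on M1, M2 and M3, and 12 of the 28 tested (42.9%) were called lower in M and 1 higher, near the 43.5% called lower over all tested genes. That of 59 mitosis genes was 290622 to 301958 in WT, against 273532 to 281540 in E, and 238167, 228336 and 165649 in M. The late granule genes of neutrophils summed to 1619 to 1747 in WT, 7334 to 8619 in E, and 106742, 93175 and 112087 in M, and 7 of the 7 tested were called higher. The monocyte and macrophage genes, Irf8 among them, summed to 5687 to 5967 in WT, 3894 to 4315 in E, and 24867, 22728 and 35806 in M, where 3 of the 10 tested were called lower and 6 higher. After scaling on the spike-ins these counts became 26 and 1 of 28 for the erythroid genes, with 79.4% of all tested genes called lower, 0 and 7 of 7 for the granule genes, and 4 and 4 of 10 for the monocyte genes. No gene of these 4 lists was at 0 on any array, and their part in the falls of the 152 was not tested.

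Other probe sets of the same genes went down less. For 78 of the 152 genes the array carried 122 further probe sets of the same symbol, and 49 of these, of 42 genes, had a WT mean of at least 8. M lay below WT in 48 of the 49, with a median of -0.83, and 10 fell by at least 1. The exception was a second probe set of Pdzd11, at 0.21. Of the 73 dimmer ones, 20 lay above 0, and their median was -0.35. The brightest probe set had been chosen without regard to the fall, but the gene entered the 152 through it.

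Some of the genes were neighbours on a chromosome. In the gene order of GRCm38.p6, 23 of the 152 (15.1%) had another of the 152 within 5 genes, against 576 of the 7059 placed genes (8.16%) with a WT mean of at least 8 that were not chosen. Mtfp1 lay next to Sec14l2, Mrps36 next to Cenph and Ccnd3 next to Bysl. The longest run was on chromosome 17, where Wdr90, Mcrip2 and Mettl26 were adjacent and Nme4 and Pdia2 followed within 16 genes. Of the 11 genes of that run with a WT mean of at least 8, 5 were among the 152, and the other 6 had differences of -0.90 to 0.20.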

How the data were processed

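The deposited values are log2 signals made by the authors with MAS5, per the submitters' processing notes (version not given), from biotin-labelled total RNA on 9 mouse arrays labelled with a 3′ IVT kit, per the labels' protocols. They were used as deposited. Of 45101 probe sets, 34958 had 1 gene symbol in the platform annotation, 932 had several and 9211 were not listed; the last 2 kinds were not used. The 9097 genes at or above the median brightness (6.83) were tested in R 4.3.3 with limma 3.58.1 (lmFit and eBayes with trend, 3 groups of 3 arrays, Benjamini-Hochberg threshold 0.05). The fit was also run on simulated data in which each gene had the same spread in all groups. That run does not cover the wider spread of the M arrays. The number of arrays limits the precision. Same-numbered arrays did not pair (correlations of their deviations -0.10 to 0.08).

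The members and lists were chosen with earlier results of these data known. Genes were named by rule: the 10 largest falls in M, those called in E, the 5 widest ranges over the M arrays, the 4 with the highest WT mean of each list with at least 3 members, and 3 on either side of the threshold of -1. All others, the roles and the symbol families were chosen after values were seen. Alternatives were quantile normalization, centring, spike-in scaling, the mean of a gene's probe sets, a pseudocount of 64, other thresholds, other limma settings, a replicate block and leaving out each array.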

Additional observations from a re-analysis of the deposited data

How the results depend on the processing

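The rule gave 152 genes on the values as deposited. It gave 486 after quantile normalization (136 of the 152 among them), 3111 after centring each array on its median, 5383 after spike-in scaling, 77 with a pseudocount of 64, 563 for a fall of at least 0.8 and 29 for a fall of at least 1.2. It gave 111 with the mean of a gene's probe sets (89 shared), 169 with a WT mean of at least 7, and 87 (without M replicate 3, 71 shared) to 238 (without M replicate 2, 140 shared) without 1 array. Of the 152, the members called lower in E, 3 in number, became 0 with quantile normalization, 1 with centring, 1 with the mean of probe sets, 0 without the brightness filter and 15 with array weights, and 0 to 19 without 1 array. Those called higher, 0 in number, became 2 with centring, 9 with array weights and 0 to 7 without 1 array. The replicate block, where the number is only a number, called 0 members lower and 0 higher, and 153 of all tested genes in place of 192. The median E difference of the members, -0.00493, was 0.131 with centring and -0.00493 to 0.0304 without 1 array. Over all tested genes it was 0.007 as deposited and 0.143 with centring. The cause of these changes was not tested. With 3 arrays a group and M3 apart from M1 and M2, gene membership near the threshold is not firm.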
